A study of Homo sapiens with 11 samples.

Results

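The 41 genes described here encode the machinery that copies DNA in S phase, and were taken by gene symbol from the 26485 symbols of the deposited count tables, in which all 41 were found. They fall into 8 roles: the MCM2-7 helicase, origin recognition and helicase loading, helicase activation, the sliding clamp and its loader, the polymerases with primase and flap processing, nucleotide supply, G1/S control, and chromatin duplication. RNA was sequenced from Caki1-SR, a subline of the human clear cell renal cell carcinoma (ccRCC) line Caki-1 that had been made resistant to the kinase inhibitor sunitinib. The study names the cells treated for 24 h as clone 1 of this subline, so the values describe that subline alone. All groups, the controls included, were grown from cultures kept in 1 µM sunitinib. ODC cells were exposed for 2 h or for 24 h to a mix of the ruthenium drug candidate Rapta-C at 2 µM, the EGFR inhibitor erlotinib at 1 µM, the diabetes drug metformin at 1 µM and the plant lactone parthenolide at 5 µM. CTRL cells received none of these and are called untreated or sham-treated in the study. There were 3 CTRL and 3 ODC libraries at 24 h and 2 CTRL and 3 ODC libraries at 2 h, numbered below as in the sample titles. The titles carry another month for each time point, so that time and the month of the run cannot be told apart. The labels do not say that the libraries of a group came from separate cultures, and p-values then measure only the spread between these libraries, which may be technical.

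Before S phase, the origin recognition complex, CDC6 and CDT1 load the MCM2-7 helicase onto DNA. Cyclin E with CDK2 and the kinase CDC7 then trigger its activation with CDC45 and the GINS complex, and primase, the replicative polymerases, the clamp PCNA and its loader RFC carry out synthesis. Transcription of many of these genes is driven by E2F factors and peaks at the G1/S boundary, which is why their summed level is often read as a sign of how many cells are in or near S phase. The comparison of ODC with CTRL asks whether the transcripts of these genes were lower after treatment. In RNA from a whole culture, fewer cells in S phase and less RNA of these genes per cell cannot be told apart.

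Promoter sequences are shown for 7 members, chosen because they are the 3 with the smallest p at 24 h and 4 others with an E2F-type match, of which 3 had ODC and CTRL levels close to each other at 24 h. The sequences are from RefSeq (GRCh38.p14) and give the 100 bases before a RefSeq transcript start, 5′ to 3′ on the strand of the gene. MCM7 has 3 RefSeq starts and PCNA 2, and the start with the most E2F matches in its 100 bases is shown. Capitals mark a match to TTTGGCGC, TTTCCCGC, TTTGCCGC or TTTCGCGC on either strand, the 4 forms of the E2F motif that were searched.
RFC4: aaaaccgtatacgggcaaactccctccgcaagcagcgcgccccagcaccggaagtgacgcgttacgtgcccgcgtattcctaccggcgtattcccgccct
PRIM1: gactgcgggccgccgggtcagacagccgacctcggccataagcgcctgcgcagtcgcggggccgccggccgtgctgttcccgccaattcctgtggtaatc
MCM7: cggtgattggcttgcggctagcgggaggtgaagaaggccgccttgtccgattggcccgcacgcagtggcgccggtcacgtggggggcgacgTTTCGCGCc
MCM6: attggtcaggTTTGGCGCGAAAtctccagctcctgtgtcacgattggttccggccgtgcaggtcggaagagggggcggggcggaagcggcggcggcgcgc
E2F1: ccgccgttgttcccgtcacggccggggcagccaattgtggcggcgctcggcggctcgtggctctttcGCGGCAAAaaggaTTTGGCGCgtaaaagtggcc
TYMS: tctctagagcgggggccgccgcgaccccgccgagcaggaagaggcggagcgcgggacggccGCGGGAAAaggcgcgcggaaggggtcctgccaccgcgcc
PCNA: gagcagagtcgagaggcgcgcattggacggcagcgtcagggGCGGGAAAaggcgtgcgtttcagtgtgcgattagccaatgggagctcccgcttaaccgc

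These stretches lie at chr3:186806483-186806582 (RFC4), chr12:56752324-56752423 (PRIM1), chr7:100101398-100101497 (MCM7), chr2:135876444-135876543 (MCM6), chr20:33686386-33686485 (E2F1), chr18:657553-657652 (TYMS, on the plus strand) and chr20:5126623-5126722 (PCNA), all but TYMS on the minus strand. GENCODE 44 starts RFC4 and MCM7 further upstream than the RefSeq start used here, so those stretches fall inside the annotated genes, and those of PRIM1 and PCNA do so in part. The capitals in MCM7 mark bases -9 to -2 counted from the transcript start, and those in PCNA bases -59 to -52. In MCM6, matches on opposite strands overlap between -90 and -79, and in E2F1 a pair of matches lies between -33 and -13. The stretches of RFC4 and PRIM1 hold none of the 4 forms, which says only that these letters are not there.

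Windows of 250 bases before to 50 bases after a RefSeq start were found for 36 of the 41 members, with 47 windows in all, the others being MCM4, MCM5, GINS4, POLD3 and CCNE2. An E2F form was present in 42.6% of these windows, against 3.31% of all 35116 windows and 4.92% of the windows of genes tested at 24 h. By gene, 19 of the 36 members held one. CCAAT, the box bound by NF-Y, was present in 57.4% of the members' windows against 34.6% of all, and TTTGAA, the core of the CHR element of late cell cycle genes, in 2.13% against 15.2%, both strands being searched. In the windows of genes tested at 24 h, CCAAT was present in 34.9% and TTTGAA in 10.4%. In a list of 32 G2 and mitosis genes used for comparison, TTTGAA was present in 54.3% of the windows and an E2F form in 11.4%. A second list, of 45 other replication and S-phase genes, had an E2F form in 17 and TTTGAA in 6 of its 50 windows.

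The 24 h libraries held 17785229 to 20882856 counts and those of 2 h 25782895 to 31118349, and the share of the members at 24 h was 0.471% to 0.606%. Every member was above the floor of 3 counts in every library, from 40 counts for E2F2 in ODC library 6 at 24 h up to 15028 counts for TYMS in ODC library 4 at 2 h. Levels are given below as CPM, the count scaled to a library of 1e+06 counts, after TMM scaling of the library sizes. For the cell type markers and the 10-fold comparison of libraries, CPM were taken without TMM scaling. Of the markers of a renal carcinoma line, PAX8, KRT8, KRT18 and VIM were expressed in every library, while CA9, usual in clear cell tumours, was at 0 or 1 counts and PAX2 at 0 to 4 counts. One library stands apart: CTRL library 1 at 2 h had 17 genes at 10 or more times the level of every other 2 h library, among them COL1A2 with 971 counts against at most 11. None of the 17 was a member. The fibroblast markers COL3A1, DCN and LUM had 1081, 73 and 65 counts in that library and at most 6 in any other, and all 6 markers of the list summed to 327 CPM there against 137 CPM in CTRL library 2. All 6 were above 1 CPM in CTRL library 1, while COL1A2, COL3A1, DCN and LUM had 2, 0, 1 and 0 counts in CTRL library 2. In each other group 2 of 6 were above 1 CPM. The endothelial markers summed to at most 1.28 CPM in any library, the highest sum being that of CTRL library 1 at 2 h. The endothelial marker VWF, the epithelial markers KRT19 and EPCAM and the immune marker LYZ had 13, 48, 100 and 13 counts there. In any other library they had at most 2, 3, 27 and 3 counts. CD14 and TEK, of the immune and endothelial lists, were not highest there. The 2 h median and the members named at 2 h for their small p are therefore given with and without that library.

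Per kilobase of merged exon, the members covered a wide range in CTRL cells at 24 h. TYMS, the thymidylate synthase, was highest with 208 ± 7.77 CPM per kb (SD, n = 3), followed by PCNA with 187 ± 19.4 and the thymidine kinase TK1 with 178 ± 21.9. The spreads of TYMS and PCNA, and of PCNA and TK1, overlapped. POLA1, the catalytic subunit of polymerase alpha, had 3.33 ± 0.335 CPM per kb, and the transcription factor E2F2 was lowest with 0.593 ± 0.155. Counts of some members are uncertain because other loci can share their reads. Named pseudogene copies exist for PCNA, RRM2, TYMS, FEN1, ORC1, RFC3 and RFC5, and PRIM1 shares exon bases with NACA and FEN1 with FADS2 on the same strand. Genes on the opposite strand cover 47.9% of the exon bases of TYMS, 37.1% of CCNE2, 23.6% of MCM2 and 23.4% of GINS4, and the strand setting of the counting is not given in the sources used here.

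At 24 h, 38 of the 41 members had a log2 fold change of ODC against CTRL below 0, which 49.9% of the 12689 genes tested had, and the median over the members was -0.22 against 0.00089 over all genes. The exceptions were CCNE1, E2F2 and TYMS. An unadjusted p under 0.05 in edgeR's quasi-likelihood test was reached by 10 members, 24.4% of them, all lower in ODC: RFC4, PRIM1, MCM7, PRIM2, POLE2, RRM2, FEN1, CDC6, RFC2 and GINS4. Among all genes tested, 5.04% passed that limit in the lower direction and 7.2% in the higher, in which no member passed. No member had an adjusted p under 0.05 after Benjamini-Hochberg adjustment over all genes, where 0.189% of all genes did (0.0236% lower), and none differed 2-fold. DESeq2, run as an alternative, gave 10 members with an unadjusted p under 0.05 and 1 with an adjusted p under 0.05, RFC4 (adjusted p = 0.0213). In 16 members (39%) every ODC library lay below every CTRL library, which 8.51% of all genes did, and in no member did every ODC library lie above, against 9.42% of all genes. The shift of the members was thus small in size and spread over most of them.

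Libraries 1 and 2, 3 and 4, and 5 and 6 alternate between CTRL and ODC, and a pairing of these neighbours was fitted as well. It is not stated in the labels and had been tried in earlier work on these data. With this replicate block, 22 members had an unadjusted p under 0.05, all lower in ODC (10.4% of all genes were lower and 13.2% higher), and 5 had an adjusted p under 0.05, with 2.06% of all genes called lower and 3.35% higher. The 5 were RFC4 (adjusted p = 0.0168), PRIM1 (0.0206), MCM7 (0.0237), FEN1 (0.042) and POLE2 (0.0426), by edgeR's quasi-likelihood test. The median over the members was -0.22 in this fit too.

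**Figure D1:**
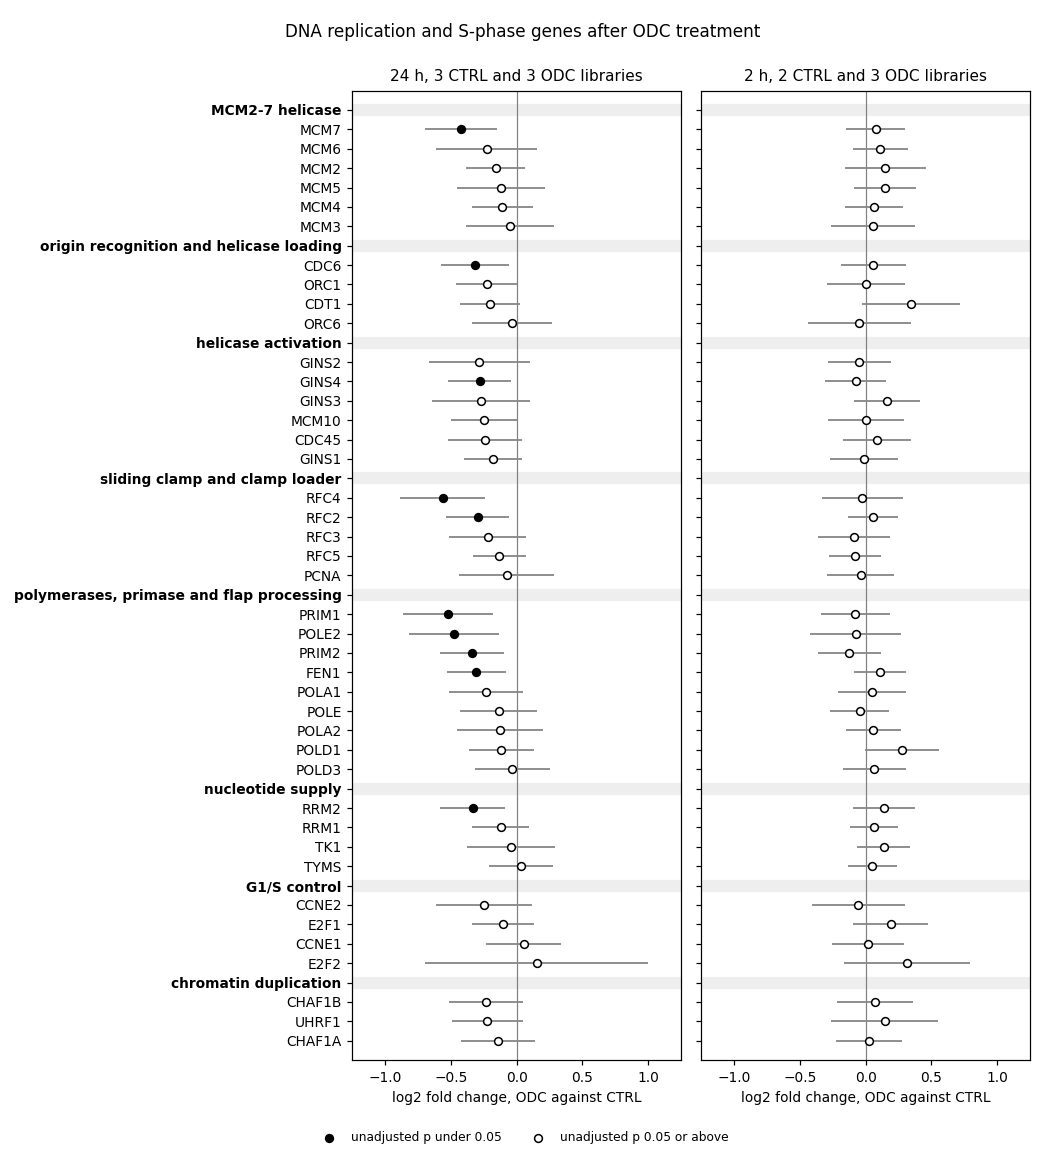
Log2 fold change of ODC against CTRL for each of the 41 members by role, at 24 h (left) and 2 h (right), with horizontal lines for the 95% confidence interval and filled points for an unadjusted p under 0.05 in edgeR's quasi-likelihood test. At 24 h 38 points lie left of 0 and 10 are filled, while at 2 h 13 lie left of 0 and none is filled.

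MCM2 to MCM7 form the ring-shaped helicase that opens the origin, and all 6 were below 0 at 24 h, with a median of -0.14 and 1 of 6 at an unadjusted p under 0.05. MCM7 measured 438, 421 and 368 CPM in CTRL libraries 1, 3 and 5, and 309.7, 340.2 and 265 CPM in ODC libraries 2, 4 and 6. All ODC values were below all CTRL values. Its log2 fold change was -0.42 with a standard error (SE) of 0.12 and a 95% confidence interval from -0.70 to -0.15 (unadjusted p = 0.00778, adjusted p = 0.214, quasi-likelihood test of edgeR, Benjamini-Hochberg adjusted). MCM3, at the other end of this role, had 329, 299 and 288 CPM in CTRL and 334, 321 and 232 CPM in ODC, a log2 fold change of -0.05 (95% confidence interval -0.38 to 0.29). Its groups overlapped, and only ODC library 6 was below the CTRL range. For MCM6, CTRL libraries had 176, 170.0 and 147 CPM and ODC libraries 142, 171 and 108 CPM, again with library 6 lowest, library 4 within the CTRL range and library 2 just under it. Taken as the mean over the 6 genes, the role lay 0.0065 above the CTRL mean on the log2 scale in ODC library 4, -0.16 from it in library 2 and -0.42 from it in library 6. MCM7 was the only one of the 6 without overlap. Its 24 h intervals and those of MCM2, MCM4 and MCM5 (log2 fold changes of -0.16, -0.11 and -0.12) overlapped, and the difference between the 6 genes was not tested.

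Of the 4 genes for origin recognition and helicase loading, all were below 0, with a median of -0.21. CDC6, an ATPase that brings the helicase to the origin, had 118, 103 and 104 CPM in CTRL and 84.6, 96.9 and 78.5 CPM in ODC, with no overlap. The log2 fold change was -0.32 (SE 0.11, unadjusted p = 0.0213, adjusted p = 0.295, edgeR's quasi-likelihood test). ORC1, the largest subunit of the origin recognition complex, had 72.2, 61.8 and 63.6 CPM against 59.5, 55.8 and 53.5 CPM, a log2 fold change of -0.23 (SE 0.10) with an unadjusted p of 0.0527 in the edgeR test. Its groups did not overlap either. CDT1, the other loading factor, likewise had every ODC library below every CTRL library, with a mean of 51.8 ± 4.76 against 59.5 ± 1.23 CPM (SD, n = 3 each). ORC6 showed no such separation, with 60.0, 50.5 and 54.2 CPM in CTRL and 59.8, 44.7 and 56.4 CPM in ODC, and a log2 fold change of -0.03 (95% confidence interval -0.34 to 0.27).

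The 6 genes of helicase activation had log2 fold changes between -0.29 and -0.18, with a median of -0.26. GINS4, a subunit of the GINS complex, measured 48.7, 47.3 and 45.4 CPM in CTRL and 40.4, 35.1 and 40.8 CPM in ODC. All ODC values were below all CTRL values, and the log2 fold change was -0.28 (SE 0.10, unadjusted p = 0.0252, adjusted p = 0.315, edgeR's quasi-likelihood test). MCM10, which helps to start unwinding, had 104, 82.2 and 99.1 CPM in CTRL and 82.0, 81.2 and 77.7 CPM in ODC, a log2 fold change of -0.25. The ODC libraries were close together there, and CTRL library 3 lay next to them. GINS2, with the lowest fold change of the role, overlapped between groups, with 101, 79.7 and 91.2 CPM in CTRL and 86.9, 79.4 and 57.1 CPM in ODC. GINS1 was lower in every ODC library, with 47.3, 47.4 and 49.0 CPM in CTRL against 45.3, 40.3 and 41.2 CPM in ODC, and had the fold change nearest to 0 of the 6 (-0.18, SE 0.10). CDC45, the helicase cofactor, was at 48.6 ± 4.17 CPM in CTRL and 41.2 ± 4.74 CPM in ODC (SD, n = 3 each).

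PCNA is the sliding clamp that holds the polymerases on DNA, and RFC2 to RFC5 are the small subunits of its loader. RFC4 had the smallest p of all members. In CTRL its level was 104, 98.9 and 89.5 CPM, and in ODC 75.0, 70.1 and 53.0 CPM, which put the highest ODC library well below the lowest CTRL library. The log2 fold change was -0.56, a change of -32.3%, with an SE of 0.14 and a 95% confidence interval from -0.89 to -0.24 (unadjusted p = 0.00404, adjusted p = 0.168, quasi-likelihood test of edgeR, Benjamini-Hochberg adjusted). Leaving out each library in turn moved it between -0.67 and -0.43. RFC2 had 65.2, 68.2 and 58.8 CPM in CTRL and 56.0, 52.8 and 47.8 CPM in ODC, also without overlap, with a log2 fold change of -0.30 (SE 0.10, unadjusted p = 0.0221, adjusted p = 0.299 in the edgeR test). RFC3 and RFC5 were at -0.22 and -0.13 with p above that limit. The clamp itself showed no separation: PCNA measured 294, 252 and 242 CPM in CTRL and 307, 237 and 205 CPM in ODC, so that the highest and the lowest of the 6 libraries were both ODC. Its log2 fold change was -0.07, and the 95% confidence interval reached from -0.44 to 0.29, which leaves room for values as low as that of MCM7.

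All 9 genes for polymerases, primase and flap processing were below 0, with a median of -0.23. An unadjusted p under 0.05 in the edgeR test was reached by 4 of the 9 (44.4%). The share was 2 of 5 (40%) for the clamp and its loader, and differences between roles were not tested. Both primase subunits, which make the RNA primers, were among the 4 genes of this role at that limit. PRIM1, the catalytic subunit, measured 65.9, 58.1 and 53.4 CPM in CTRL and 49.7, 36.3 and 37.3 CPM in ODC, a log2 fold change of -0.52 (SE 0.15, unadjusted p = 0.00757, adjusted p = 0.213, edgeR's quasi-likelihood test). PRIM2, the regulatory subunit, measured 43.1, 38.4 and 40.995 CPM in CTRL and 34.0, 30.3 and 32.4 CPM in ODC, a log2 fold change of -0.34 (SE 0.10, unadjusted p = 0.0114, adjusted p = 0.246 in the same test). For both, the ODC range ended below the CTRL range. POLE2, an accessory subunit of the leading-strand polymerase epsilon, had 26.4, 20.2 and 24.0 CPM in CTRL and 19.2, 15.7 and 15.8 CPM in ODC, and a log2 fold change of -0.48 (SE 0.15, unadjusted p = 0.012, adjusted p = 0.251, edgeR). ODC library 2 and CTRL library 3 were the closest there. FEN1, the nuclease that trims Okazaki fragments, had 192, 197 and 178 CPM in CTRL and 149.7, 167 and 142 CPM in ODC, with no overlap and a log2 fold change of -0.31 (SE 0.10, unadjusted p = 0.014, adjusted p = 0.262, edgeR). The catalytic subunits of the polymerases lay nearer to 0 than these 4: POLA1 at -0.23, POLE at -0.14 and POLD1 at -0.12, each with overlapping groups. The value nearest to 0 was that of POLD3, a subunit of polymerase delta, with 73.1, 71.8 and 61.8 CPM in CTRL and 71.8, 72.5 and 57.6 CPM in ODC (log2 fold change -0.03, 95% confidence interval -0.32 to 0.25).

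The 4 genes for nucleotide supply split. RRM2, the regulated subunit of ribonucleotide reductase, had 395, 319 and 328 CPM in CTRL and 285, 279 and 262 CPM in ODC, a log2 fold change of -0.34 (SE 0.11, unadjusted p = 0.0138, adjusted p = 0.261, edgeR's quasi-likelihood test). The ODC libraries lay close together and below all CTRL libraries. RRM1, the large subunit, was at -0.12 with ODC library 6 above the lowest CTRL library. TYMS, which makes thymidylate, had 524, 487 and 500.0 CPM in CTRL and 584, 478 and 484 CPM in ODC, with a log2 fold change of 0.03 and a 95% confidence interval from -0.21 to 0.28. Its highest value was in ODC library 2 and the other ODC libraries lay just under the CTRL range. TK1, the salvage enzyme, was at -0.04 (95% confidence interval -0.38 to 0.29) with overlapping groups.

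The 4 genes of G1/S control showed no common direction, with a median of -0.026 and no unadjusted p under 0.05 in the edgeR test. CCNE1, a cyclin that activates CDK2, had 40.6, 32.7 and 42.7 CPM in CTRL and 39.5, 39.6 and 41.2 CPM in ODC, so that all ODC libraries fell inside the CTRL range. Its paralogue CCNE2 had 26.6, 18.6 and 25.3 CPM in CTRL and 21.0, 20.2 and 18.1 CPM in ODC, with a log2 fold change of -0.25 (SE 0.16) and overlapping groups. E2F1, an activating E2F factor whose promoter is printed above, was at 95.6 ± 3.47 CPM in CTRL and 88.9 ± 8.75 CPM in ODC (SD, n = 3 each). E2F2 was too low to place, with 3.27, 4.07 and 2.38 CPM in CTRL, 3.79, 5.13 and 1.92 CPM in ODC and a 95% confidence interval of the log2 fold change from -0.70 to 1.00.

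The 3 genes of chromatin duplication were all below 0 with no unadjusted p under 0.05 in the edgeR test. CHAF1B, a subunit of the chaperone that deposits histones behind the fork, had 49.1, 48.4 and 39.6 CPM in CTRL and 41.5, 39.6 and 35.8 CPM in ODC (log2 fold change -0.23, SE 0.12). Its partner CHAF1A had 88.7, 96.5 and 82.2 CPM in CTRL and 81.0, 91.1 and 70.1 CPM in ODC (log2 fold change -0.14, SE 0.12). In both the groups overlapped. UHRF1, which recruits the maintenance DNA methyltransferase, had a log2 fold change of -0.22 (SE 0.12), with ODC library 4 within the CTRL range and libraries 2 and 6 below it.

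**Figure D2:**
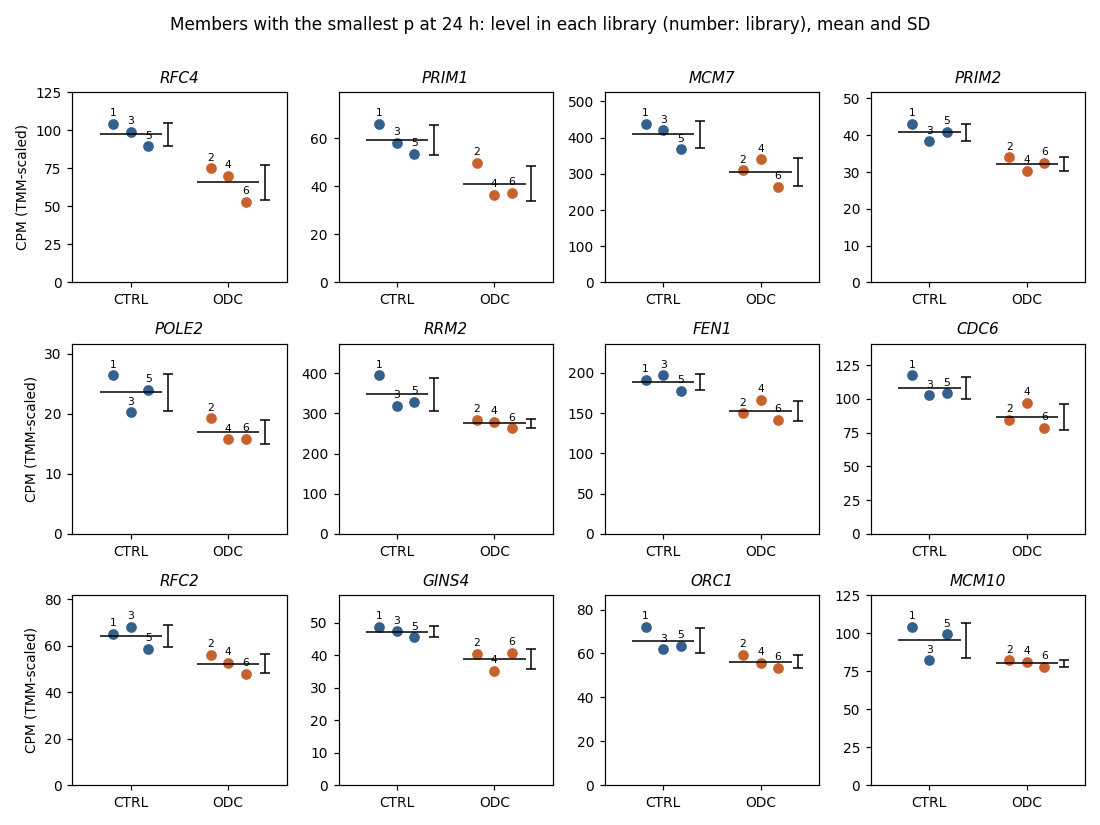
Level in CPM (vertical axis from 0) of the 12 members with the smallest p at 24 h, in each CTRL (blue) and ODC (orange) library, with the library number beside each point, the mean as a horizontal line and the SD as a bar. In all 12, from RFC4 with 53.0 to 75.0 CPM in ODC against 89.5 to 104 CPM in CTRL to MCM10, the ODC points lie below the CTRL points.

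Members with and without the E2F letters had like values at 24 h, a difference that was not tested. The 19 members with an E2F form in their window had a median log2 fold change of -0.20, with 3 at an unadjusted p under 0.05, and the 17 with a window but no E2F form had a median of -0.23, with 6 at that limit. The sequences printed above were chosen in part by their 24 h values, so they cannot show how the values relate to the E2F letters. Of these, RFC4 and PRIM1, without a form, were at -0.56 and -0.52. With a form, MCM7 was at -0.42, MCM6 at -0.23, E2F1 at -0.11, PCNA at -0.07 and TYMS at 0.03.

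Summed over the members as the mean of their log2 CPM, the level of the 3 CTRL libraries at 24 h was 0.070, -0.012 and -0.058 from their mean, and that of ODC libraries 2, 4 and 6 was -0.13, -0.14 and -0.34. All ODC libraries were below all CTRL libraries. The summed levels of 2 marker lists also lay apart between the groups at 24 h: the 11 renal epithelial carcinoma markers summed to 6365 to 6993 CPM in CTRL and 5130 to 6183 CPM in ODC, and the 6 immune cell markers to 5.79 to 6.24 CPM in CTRL and 7.19 to 8.03 CPM in ODC, neither with overlap. The part of these lists in the result was not tested. The renal markers did not all move with their sum. PAX8 had 9095, 12539 and 9008 raw counts in the CTRL libraries and 11541, 16490 and 11359 in the ODC libraries. VIM had 69564, 67852 and 56800 raw counts in CTRL and 49860, 54588 and 60973 in ODC. Library 6 was the lowest of the 6 libraries in 26 of the 41 members and library 4 in 11. Without ODC library 6 the median log2 fold change of the members was -0.15, with 32 of 41 below 0 and 8 at an unadjusted p under 0.05, and leaving out any single library gave between 7 and 13 such members and a median between -0.24 and -0.15. The 7 came without CTRL library 1, which was the highest library in 21 members.

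**Figure D3:**
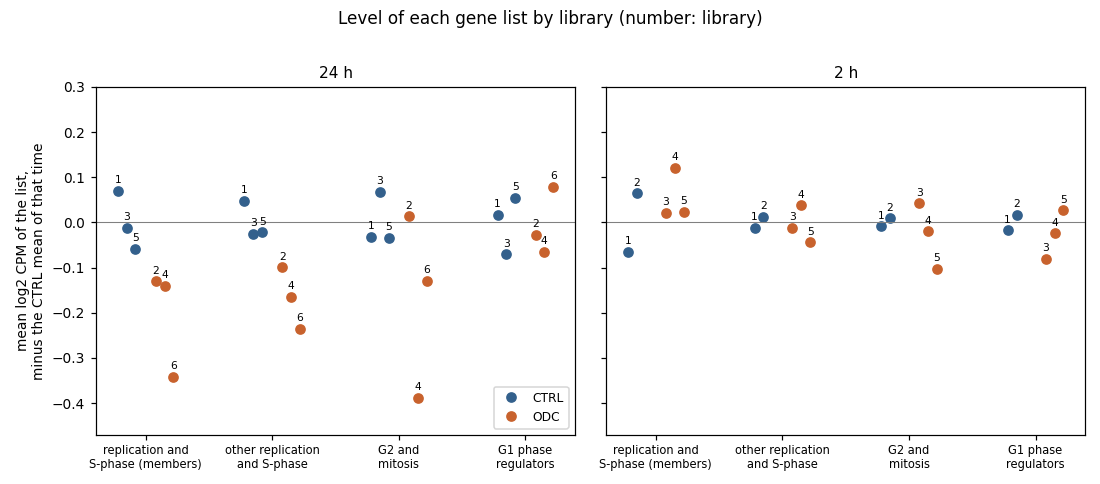
Mean log2 CPM of the members and of the comparison lists in each library, as the difference from the CTRL mean of the same time (vertical axis, log2 units), with the library number beside each CTRL (blue) and ODC (orange) point. For the members at 24 h the ODC points lie from -0.34 to -0.13 and the CTRL points from -0.058 to 0.070, and at 2 h CTRL library 1 is the lowest point at -0.065.

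A further 45 replication and S-phase genes outside the member list had similar values at 24 h: 39 were below 0, the median was -0.17, and 10 had an unadjusted p under 0.05 and were lower (22.2%, against 5.04% of all genes), with none higher. In 15 of them (33.3%, against 8.51% of all genes) every ODC library lay below every CTRL library. The 4 with the smallest p were DNA2, a nuclease and helicase for flap processing (log2 fold change -0.40, SE 0.10, unadjusted p = 0.00303, adjusted p = 0.154, edgeR's quasi-likelihood test), ATAD5, which unloads PCNA (-0.39, SE 0.11), the chromatin factor ATAD2 (-0.31, SE 0.09) and USP1, the protease that removes ubiquitin from PCNA (-0.34, SE 0.10). None of the 45 passed an adjusted p of 0.05 in the unpaired test. In the paired edgeR fit, where 2.06% of all genes were lower at an adjusted p under 0.05, 4 of the 45 were: DNA2 (adjusted p = 0.0339), USP1 (0.0449), ATAD2 (0.0493) and RPA2 (0.0496).

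Of 32 G2 and mitosis genes, 31 were below 0 at 24 h with a median of -0.14, and 3 had an unadjusted p under 0.05, a share of 9.38% against 5.04% of all genes. The 3 were CDK1, the kinase that drives entry into mitosis (-0.32, SE 0.11), AURKB (-0.26, SE 0.09) and BUB1B (-0.30, SE 0.13). In 6 of the 32 (18.8%, against 8.51% of all genes) every ODC library lay below every CTRL library. MKI67, the proliferation marker, was at -0.10 with 647, 895 and 735 CPM in CTRL and 749, 732 and 639 CPM in ODC, and the groups overlapped. For this list ODC library 4 was the lowest, at -0.39 from the CTRL mean, while library 6 was at -0.13 and library 2 at 0.014. The library that was lowest for the replication genes was therefore not the one that was lowest for the mitotic genes.

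Of 28 regulators of G1 phase, 24 could be tested at 24 h, with a median of -0.065. CDKN1A, which encodes the CDK inhibitor p21, had 86.9, 89.4 and 107 CPM in CTRL and 206, 130.5 and 218 CPM in ODC, all ODC values above all CTRL values. Its log2 fold change was 0.97 (SE 0.19, unadjusted p = 0.00104, adjusted p = 0.107, edgeR's quasi-likelihood test), and the paired fit gave an adjusted p of 0.0156. CDK2, the partner of cyclin E, was lower, with 150.2, 138 and 129 CPM in CTRL against 113, 114 and 96.02 CPM in ODC (log2 fold change -0.37, SE 0.11, unadjusted p = 0.00912, adjusted p = 0.228, edgeR). In the paired fit its adjusted p was 0.0316. GADD45A, a stress-induced growth arrest gene, was at 0.65 (SE 0.27) and the repressor E2F8 at -0.38 (SE 0.16), both with overlapping groups, and GADD45A had an adjusted p of 0.0361 in the paired edgeR fit. CCND1, the D-type cyclin, was at -0.03 (SE 0.22).

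**Figure D4:**
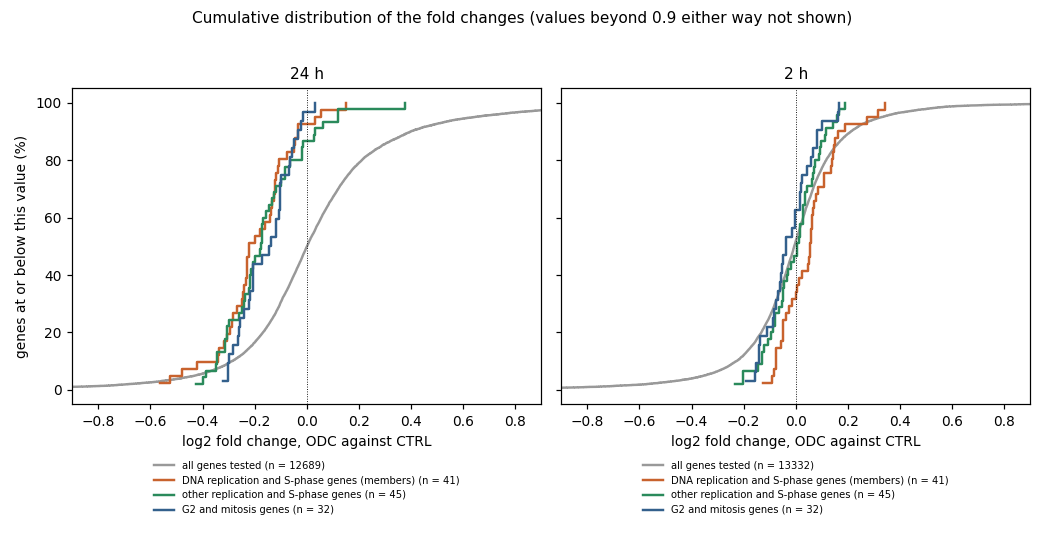
Cumulative share of genes (vertical axis, percent) at or below each log2 fold change of ODC against CTRL, at 24 h (left) and 2 h (right), for all genes tested (grey), the 41 members (orange), 45 other replication genes (green) and 32 G2 and mitosis genes (blue). At 24 h the curves of the lists lie left of the grey curve over most of their length, with medians of -0.22, -0.17 and -0.14 against 0.00089, and at 2 h the members lie slightly right of it, with a median of 0.057 against -0.0060.

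At 2 h, 13 of the 41 members were below 0 and 28 above, where 51.8% of all genes were below 0, with a median log2 fold change of 0.057 against -0.0060 over all 13332 genes tested. No member had an unadjusted p under 0.05 in edgeR's quasi-likelihood test or in DESeq2, in either direction, where 0.87% of all genes were lower and 1.47% higher at that limit. None had an adjusted p under 0.05, and neither had any of the genes tested in edgeR, of which 116 were lower and 196 higher at an unadjusted p under 0.05. DESeq2 gave 1 gene with an adjusted p under 0.05 and no member. In 2 members, PRIM2 and RFC5, every ODC library lay below every CTRL library (7.42% of all genes), and in 7 every ODC library lay above (7.89% of all genes). The 7 were POLD1, TK1, E2F2, GINS3, FEN1, RRM1 and RFC2.

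The smallest p at 2 h belonged to POLD1, the catalytic subunit of polymerase delta, with 50.3 and 62.0 CPM in CTRL libraries 1 and 2 and 63.5, 73.7 and 66.7 CPM in ODC libraries 3, 4 and 5. ODC was above CTRL in each, by a log2 fold change of 0.28 (SE 0.12, unadjusted p = 0.0535, edgeR). CDT1 had 51.3 and 71.7 CPM in CTRL and 67.2, 82.4 and 84.6 CPM in ODC, a log2 fold change of 0.34 (SE 0.16, unadjusted p = 0.066, edgeR), with CTRL library 1 apart from all others and CTRL library 2 among the ODC values. TK1 had 316 and 333 CPM in CTRL and 365, 371 and 335 CPM in ODC (log2 fold change 0.14, SE 0.09), without overlap but with ODC library 5 next to CTRL library 2. E2F1 had 80.3 and 105 CPM in CTRL and 101, 111 and 104 CPM in ODC (log2 fold change 0.19, SE 0.12). E2F2 had 3.29 and 3.35 CPM in CTRL and 3.68, 4.05 and 4.66 CPM in ODC (0.31, SE 0.21), and GINS3 31.9 and 35.6 CPM in CTRL and 36.3, 37.8 and 39.4 CPM in ODC (0.16, SE 0.11). In E2F1 the low CTRL value was again that of library 1.

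CTRL library 1, the library with the COL1A2 counts, was the lowest of the 2 h libraries in 25 of the 41 members. Without it the median of the members at 2 h was -0.0083 and 21 members were below 0, and of the 6 members just named POLD1 was at 0.13, CDT1 at 0.12, TK1 at 0.098, E2F1 at 0.011, E2F2 at 0.30 and GINS3 at 0.087. Without CTRL library 2 in its place the median was 0.18 and 6 members were higher with an unadjusted p under 0.05. The size and sign of the 2 h median thus depended on which CTRL library was used. The part in it of the fibroblast and other marker signal of CTRL library 1 was not tested. The 10 members with an unadjusted p under 0.05 at 24 h ran at 2 h from -0.12 for PRIM2, with all ODC below all CTRL libraries, over 0.11 for FEN1, with all ODC above all CTRL, to 0.14 for RRM2. RFC4 had 79.9 and 71.1 CPM in CTRL and 78.0, 82.8 and 61.8 CPM in ODC (log2 fold change -0.02, 95% confidence interval -0.34 to 0.29), and MCM7 386 and 436 CPM against 402, 463 and 435 CPM (0.08, 95% confidence interval -0.15 to 0.30). In both the groups overlapped.

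Of the other lists at 2 h, neither the 45 replication genes nor the 32 mitotic genes had a member with an unadjusted p under 0.05 in the edgeR test, and their medians were 0.0065 and -0.038. Among the G1 regulators 1 gene passed that limit: E2F5, named after its value was seen, with a log2 fold change of -0.48 (unadjusted p = 0.0127, edgeR). CDKN1A was at 0.07 at 2 h, with 102 and 94.9 CPM in CTRL and 116, 97.4 and 96.9 CPM in ODC.

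The difference between the 24 h and the 2 h effect was tested in a joint fit of all 11 libraries over 13333 genes. It was below 0, that is, lower at 24 h, in 40 of the 41 members (49.6% of all genes), with a median of -0.26 against 0.0025 over all genes. A total of 9 members (22%) had an unadjusted p under 0.05, all in that direction, against 2.77% of all genes, and none in the other, against 3.17%. None had an adjusted p under 0.05, which 2 genes (0.015%) had, and DESeq2 gave 10 members at an unadjusted p under 0.05 and 0 with an adjusted p under 0.05. The 9 were FEN1 (difference of log2 fold changes -0.43, SE 0.13, unadjusted p = 0.00594, adjusted p = 0.586, edgeR's quasi-likelihood test), RRM2 (-0.49, SE 0.15), MCM7 (-0.52, SE 0.16), RFC2 (-0.37, SE 0.13), CDT1 (-0.56, SE 0.20), RFC4 (-0.56, SE 0.21), CDC6 (-0.39, SE 0.16), POLD1 (-0.41, SE 0.17) and PRIM1 (-0.46, SE 0.20). CDT1 and POLD1 were among them through values above 0 at 2 h rather than through a low p at 24 h. The 2 h libraries carried weight here: without CTRL library 1 at 2 h, or without ODC library 4 at 2 h, 5 members had an unadjusted p under 0.05, and without CTRL library 2 at 2 h 13 had. By direction alone, 25 members were lower at 24 h and higher at 2 h, 13 were lower at both times and 3 were higher at both.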

How the data were processed

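The data are 11 RNA libraries of Caki1-SR cells. Per the labels and the methods of the study, stranded mRNA libraries were aligned with STAR and counted per gene with HTSeq. The submitters' processing notes name STAR 2.7.0f, HTSeq 0.9.1, edgeR 3.26.8 and hg38, and the methods of the study name other versions of STAR and edgeR. The values the authors deposited are raw counts per gene symbol, 1 table per time point, without normalization.

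From these counts, ODC and CTRL were compared at each time with edgeR 4.0.16 in R 4.3.3 (TMM, filterByExpr with a minimum count of 10 and total of 15, the earlier quasi-likelihood method, two-sided, Benjamini-Hochberg over all genes tested). All 41 members passed the filter at both times. The difference between times was a contrast in a joint fit of the 11 libraries. Alternatives were every gene with at least 1 count, RLE or library size scaling, the newer quasi-likelihood method, DESeq2 1.42.0, a joint fit, each library left out, and adjacent 24 h libraries as pairs. Within these pairs, deviations from the means of the groups had correlations of 0.20, 0.58 and 0.45. Outside them the correlations ran from -0.547 to 0.226. CTRL library 1 had a higher correlation with ODC library 6 (0.226) than with its neighbour, ODC library 2 (0.20). The method was tested on simulated data with changes larger than those of the members at 24 h, so that test says nothing on changes of their size. Replicates differed by more than sampling noise, with a chi-square of 18.7 to 58.0 per gene. Floors cover counting error only.

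The members and all gene lists, the motifs and the pairing were chosen with earlier results of these data known. Any member could be named. Values in every library are given for the 12 members with the smallest p at 24 h, the 6 at 2 h and the extremes of each role, and from the other lists at most the 4 with the smallest p at 24 h, with CDKN1A, MKI67 and CCND1. Gene positions are from GENCODE 44 and figures were drawn with matplotlib 3.10.9.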

Additional observations from a re-analysis of the deposited data

How the results depend on the processing

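At 24 h the median log2 fold change of the members stayed below 0 in all 13 alternatives, from -0.25 (scaling by library size only) to -0.15 (without ODC library 6), and between 32 and 39 members were below 0. The number of members lower at an unadjusted p under 0.05 was 10 in the unpaired fit, 22 with the replicate block, and 7 to 13 when 1 library was left out. Members with an adjusted p under 0.05 numbered 0 in the unpaired fit, 1 in DESeq2 and 5 with the replicate block, and 0 in each fit that left out a library. No labels state the pairing. At 2 h no member was lower at an unadjusted p under 0.05, or had an adjusted p under 0.05, in any of the 11 alternatives, and the median ran from -0.0083 without CTRL library 1 to 0.18 without CTRL library 2. For the difference between the times, leaving out 1 library gave 5 to 13 members at an unadjusted p under 0.05, 0 with an adjusted p under 0.05, and a median between -0.39 and -0.18. The 12 members followed singly at 24 h and the 6 at 2 h kept their direction in all alternatives run, and 6 values passed the adjusted threshold that did not in the unpaired fit, all at 24 h: RFC4 in DESeq2 and, with the replicate block, RFC4, PRIM1, MCM7, FEN1 and POLE2. The cause was not tested. With 2 or 3 libraries a group and a common coefficient of variation of 0.166 at 24 h, 95% confidence intervals at 24 h are wide against the members' fold changes (-0.44 to 0.29 for PCNA), so a value near 0 does not show that the level was the same in ODC and CTRL.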

Other observations

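The ODC libraries at 24 h differed among themselves by role. The clamp and its loader were at -0.10 from the CTRL mean in library 2, -0.30 in library 4 and -0.39 in library 6, on the log2 scale. The 4 genes of G1/S control were at 0.15 in library 4 and -0.29 in library 6, but this mean counts all 4 genes alike. E2F2, too low to place, had 5.13 and 1.92 CPM there against a CTRL mean of 3.24 CPM. CCNE1, CCNE2 and E2F1 had 39.6, 20.2 and 99.0 CPM in library 4 and 41.2, 18.1 and 83.2 CPM in library 6. Origin recognition and helicase loading was the most even of the 8 roles across ODC libraries 2, 4 and 6, at -0.17, -0.19 and -0.24. ODC libraries 4 and 6 also differed most of all replicate pairs over all genes, with a chi-square of 58.0 per gene against 18.7 to 33.6 in the other pairs.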
